A study of Rattus norvegicus with 2 samples.

Results

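The 8 genes described here let hypothalamic cells sense leptin, insulin and ghrelin: the receptors Lepr, Insr and Ghsr, the insulin receptor substrates Irs1 and Irs2, the transcription factor Stat3, and the inhibitors Socs3 and Ptpn1. They were taken by gene name, and all 8 were found among the 22353 genes of the mRNA table, with 10 transcripts in all. Hypothalamic RNA of female Sprague Dawley rats was sequenced at day 25 after birth, before puberty, and at day 35, when vaginal opening and the first estrus marked puberty. Strain and tissue were the same at both stages, no treatment is stated, and the methods give 3 rats per stage. The tables hold 1 column per stage and do not state how the rats were combined, so each stage was treated as 1 library. No difference between the stages therefore has a replicate check, and no test was run.

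Leptin is released by fat tissue and reports energy stores. Its long receptor form binds the kinase JAK2 and activates STAT3, which switches on Socs3, whose protein then shuts the receptor down. Insulin reports fuel supply through the INSR kinase, which passes its signal to the docking proteins IRS1 and IRS2 and on to PI3-kinase and AKT. Ghrelin, from the stomach, reports an empty gut through GHSR, a G protein-coupled receptor. Neurons of the arcuate nucleus carry these receptors, and a sufficient energy supply is one of the conditions for the start of reproductive life.

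Values are FPKM, fragment numbers scaled by transcript length and library depth, which the authors estimated with Cuffdiff for each transcript and which were summed here per gene. FPKM is scaled by length, so levels can be set side by side between genes. A difference between the stages is given as the log2 of (pubertal FPKM + 1) over (prepubertal FPKM + 1), which draws low values towards 0. The low FPKM of genes with 1 transcript lay on steps of whole fragments, which gave a depth of 20800000 fragments for the prepubertal and 16200000 for the pubertal library. Fragment numbers and 95% counting intervals below rest on these depths. The intervals cover counting error only and hold no spread between rats. The label of the tissue was checked on 10 hypothalamic marker genes, which were all above 0 in both libraries. Pmch, the precursor of melanin-concentrating hormone, had 1675 FPKM before puberty and 2723 FPKM at puberty, and Otp, a transcription factor of hypothalamic neurons, had 1.32 and 0.870 FPKM. Of the 9 markers with a mean of at least 1 FPKM, 6 were higher and 3 lower at puberty, 2 of them past 1.5-fold and higher, with a median log2 difference of 0.33 and sums of 2604 and 3987 FPKM. In a tissue lysate, fewer cells of a type and less RNA per cell cannot be told apart.

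Stat3 had the highest level of the 8 genes in both libraries, and Ghsr and Socs3 had the lowest. Ordered by the mean of both libraries in FPKM, Stat3 (20.9) was followed by Irs2 (9.57), Insr (6.75), Ptpn1 (6.12), Lepr (4.54), Irs1 (3.16), Ghsr (1.13) and Socs3 (0.993). Of the 8 genes, 7 reached a mean of 1 FPKM, and Socs3 lay just under it. Among the 13612 genes with a mean of at least 1 FPKM the median level was 14.3 FPKM, and Stat3 alone of the 8 was above it, at percentile 61.3. Several neighbours in this order could not be told apart by counting error. In the prepubertal library the intervals overlapped for Ptpn1 and Insr, for Lepr and Irs1 and for Ghsr and Socs3. In the pubertal library they overlapped for Ptpn1 and Lepr, for Irs1 and Socs3 and for Socs3 and Ghsr.

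**Figure D1:**
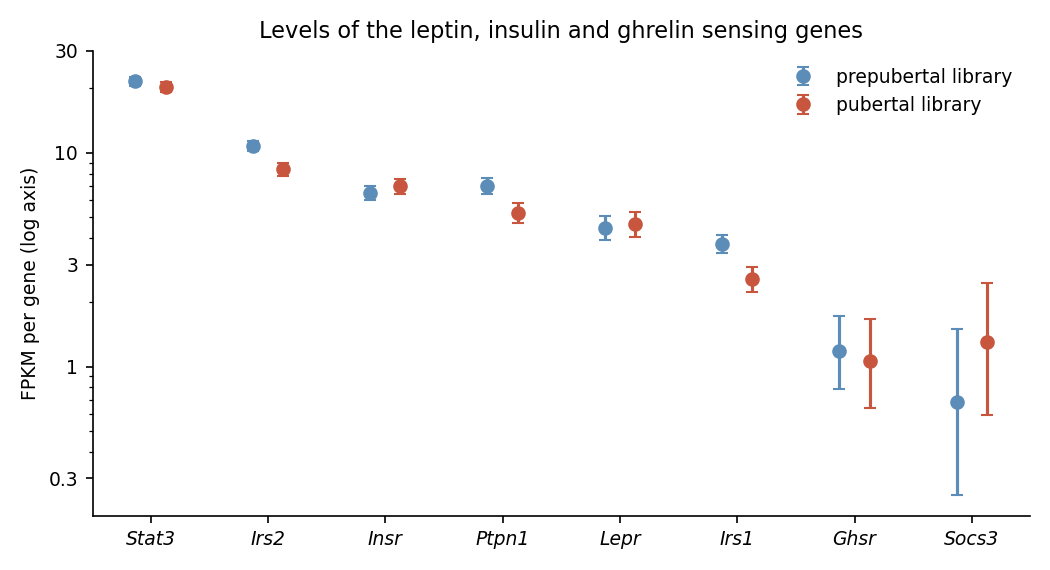
FPKM per gene (log axis) in the prepubertal and the pubertal library, 1 library per stage. Points are the deposited values summed per gene and bars are 95% counting intervals. Stat3 lies near 20 FPKM at both stages, and the widest bars are those of Socs3, which rests on 6 and 9 fragments.

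At puberty 3 of the 8 genes were higher (Lepr, Insr, Socs3) and 5 were lower (Ghsr, Irs1, Irs2, Stat3, Ptpn1). Among the 13612 genes with a mean of at least 1 FPKM, 49% were higher and 51% lower. The log2 differences of the 8 genes ran from -0.42 for Irs1 to 0.45 for Socs3, with a median of -0.08. Over all genes the median was -0.01, with quartiles of -0.17 and 0.14. None of the 8 genes (0 of 8) differed by 1.5-fold or more in FPKM + 1, against 4.08% of all genes. The directions depend on the scaling of the libraries. When they were scaled to equal Actb, which multiplies the pubertal values by 1.32, the median of all genes moved to 0.36 and 90.4% of all genes were higher, as were 6 of the 8 members, with Irs1 and Ptpn1 the exceptions.

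Lepr, the leptin receptor, had nearly the same level at both stages as a gene, but not as transcripts. Its summed level was 4.46 FPKM before puberty and 4.62 FPKM at puberty, a log2 difference of 0.04 that was -0.01 with both libraries scaled to the same total of FPKM. The table lists 2 Lepr transcripts, of 2708 nt (ENSRNOT00000050597) and 3533 nt (ENSRNOT00000044131). The shorter one had 2.77 FPKM before puberty and 1.79 FPKM at puberty, a log2 difference of -0.43. The longer one had 1.69 and 2.83 FPKM, a log2 difference of 0.51. The order of the transcripts was therefore opposite at the 2 stages. The longer transcript held 37.8% of the Lepr FPKM before puberty and 61.2% at puberty. Leptin receptors exist as a long form with the full signalling tail and as short forms that end soon after the membrane. The names of the forms are not given in the table, and a model of 2708 nt is too short for the coding sequence of the long form. The 2 models differ by 825 nt, and fragments from the stretches they share were divided between them by the authors' estimation. The precision of this split cannot be given from the files. Over both transcripts the values correspond to 256 and 222 fragments, a ratio of 1.11 at equal depth with a counting interval from 0.924 to 1.33.

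Insr, the insulin receptor, had 6.504 FPKM before puberty and 6.99 FPKM at puberty, a log2 difference of 0.09. These correspond to 690 and 579 fragments, a ratio of 1.07 with a counting interval from 0.961 to 1.20, which holds 1. Its 2 transcripts differ by 36 nt in length. The transcript of 5363 nt (ENSRNOT00000041155) had 6.20 FPKM before puberty and 6.99 FPKM at puberty. The transcript of 5399 nt (ENSRNOT00000067448) had 0.303 FPKM before puberty and was listed at 0 at puberty. Only fragments that touch a stretch in which the 2 models differ can tell them apart, so no limit was derived for this 0. The longer transcript thus made up 4.66% of the Insr FPKM in the prepubertal library. The insulin receptor is known in a form with and a form without a short exon, and the form without it prevails in the brain. Whether the 36 nt are that exon was not examined here, since the files hold no sequence of mRNAs. The split again rests on the authors' estimation between models that share nearly all of their length.

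**Figure D2:**
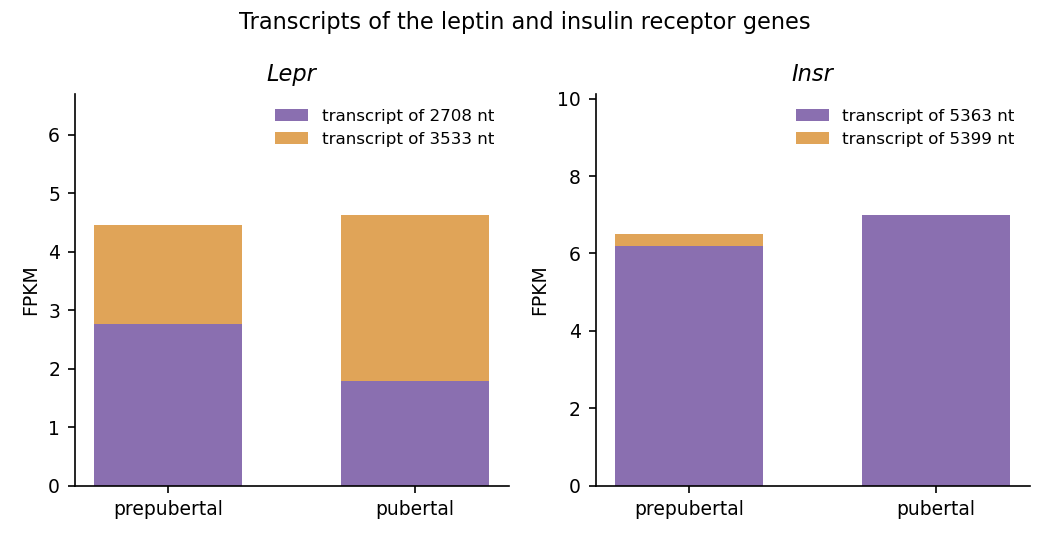
FPKM of the 2 listed transcripts of Lepr (left) and of Insr (right) in each library, stacked so that the height of a bar is the level of the gene. The longer Lepr transcript goes from 1.69 to 2.83 FPKM while the shorter one goes from 2.77 to 1.79 FPKM, and the longer Insr transcript is listed at 0 at puberty.

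Ghsr, the ghrelin receptor, was near the limit of what these libraries resolve. Its level was 1.19 FPKM before puberty and 1.07 FPKM at puberty. These values correspond to 27 and 19 fragments. The log2 difference was -0.08, and the ratio of 0.901 had a counting interval from 0.474 to 1.68, so that a difference of 1.5-fold in either direction was not detectable at this depth. With Actb made equal the log2 difference was 0.14.

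The mRNAs of the docking proteins of the insulin receptor were both lower at puberty. Irs1 had 3.76 FPKM before puberty and 2.56 FPKM at puberty, from 398 and 212 fragments. Its log2 difference of -0.42 was the lowest of the 8 genes, at percentile 6.02 of all genes, and the ratio was 0.682 with a counting interval from 0.575 to 0.808. Irs2 had 10.7 and 8.39 FPKM, from 1347 and 823 fragments. The log2 difference was -0.32 and the ratio 0.783, with an interval from 0.717 to 0.854. Irs1 stayed lower under every scaling tried, down to -0.12 with Actb made equal, whereas Irs2 was at 0.05 under that scaling. Irs2 was above Irs1 in both libraries, and their counting intervals were apart.

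Stat3, which carries the leptin signal to the nucleus, had 21.6 FPKM before puberty and 20.3 FPKM at puberty. With 1866 and 1372 fragments it was the most precisely measured of the 8 genes. The log2 difference was -0.08, and the ratio of 0.942 had a counting interval from 0.878 to 1.01. With Actb made equal the log2 difference was 0.30.

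The inhibitors Ptpn1 and Socs3 went in opposite directions. Ptpn1 encodes PTP1B, a phosphatase that removes phosphate from JAK2 and from the insulin receptor. It had 6.99 FPKM before puberty and 5.25 FPKM at puberty, from 562 and 330 fragments, a log2 difference of -0.35. The ratio was 0.752 with a counting interval from 0.655 to 0.863, and the log2 difference was -0.01 with Actb made equal. Socs3, the suppressor of cytokine signalling that STAT3 induces, had 0.686 FPKM before puberty and 1.30 FPKM at puberty. Its log2 difference of 0.45 was the highest of the 8 genes and lay at percentile 96.6 of all genes, but it rests on 6 and 9 fragments. The ratio of 1.92 had a counting interval from 0.611 to 6.56, which holds 1. At a pseudocount of 0.1 the log2 difference of Socs3 was 0.83, past 1.5-fold. The counting interval lay below 1 for Irs1, Irs2 and Ptpn1 and held 1 for the other 5 genes. Among 11308 genes with 1 transcript of over 600 nt and a mean of at least 1 FPKM, the interval lay below 1 for 23.3% and left out 1 in either direction for 43.4%.

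**Figure D3:**
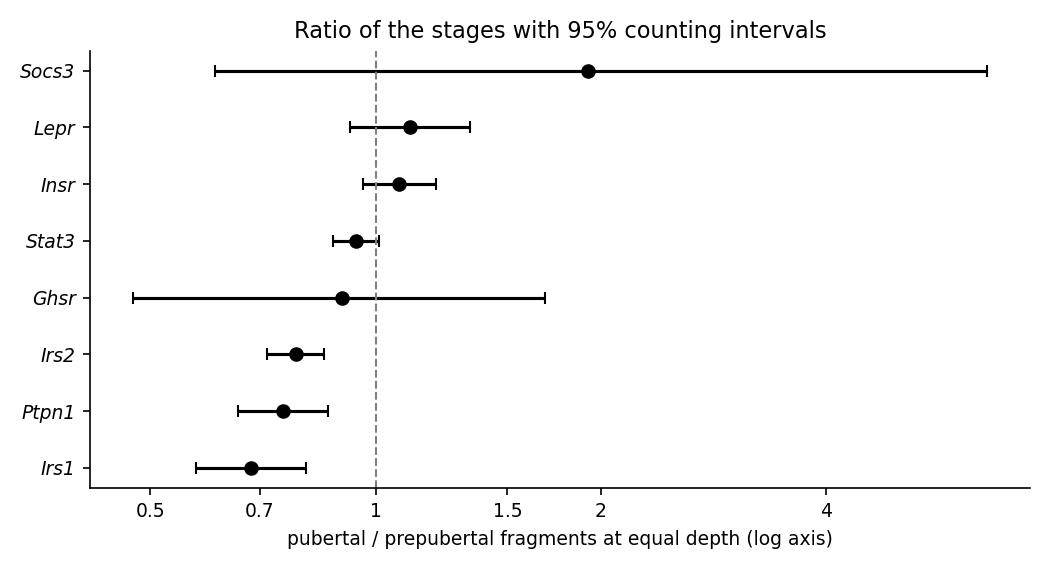
Ratio of pubertal to prepubertal fragments at equal depth (log axis) for the 8 genes, with 95% counting intervals that hold no spread between rats. The intervals of Irs1, Ptpn1 and Irs2 lie below the dashed line at 1, and the interval of Socs3 runs from 0.611 to 6.56.

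The 3 genes with intervals below 1 have long transcripts, and longer mRNAs were lower in the pubertal library as a whole. The median log2 difference was 0.08 over 2093 genes with transcripts under 1000 nt and -0.16 over 539 genes with transcripts of 6000 nt or more. In the length classes of Ptpn1 (4127 nt), Irs1 (5354 nt) and Irs2 (6301 nt) it was -0.09, -0.12 and -0.16. Relative to the median of their class, the log2 differences were -0.27 for Ptpn1, -0.30 for Irs1 and -0.16 for Irs2. Insr, which is as long as Irs1 to within a few bases, was at 0.21 relative to its class, and Stat3 was at 0.00. The part of length in the differences of these genes was not tested beyond this.

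**Figure D4:**
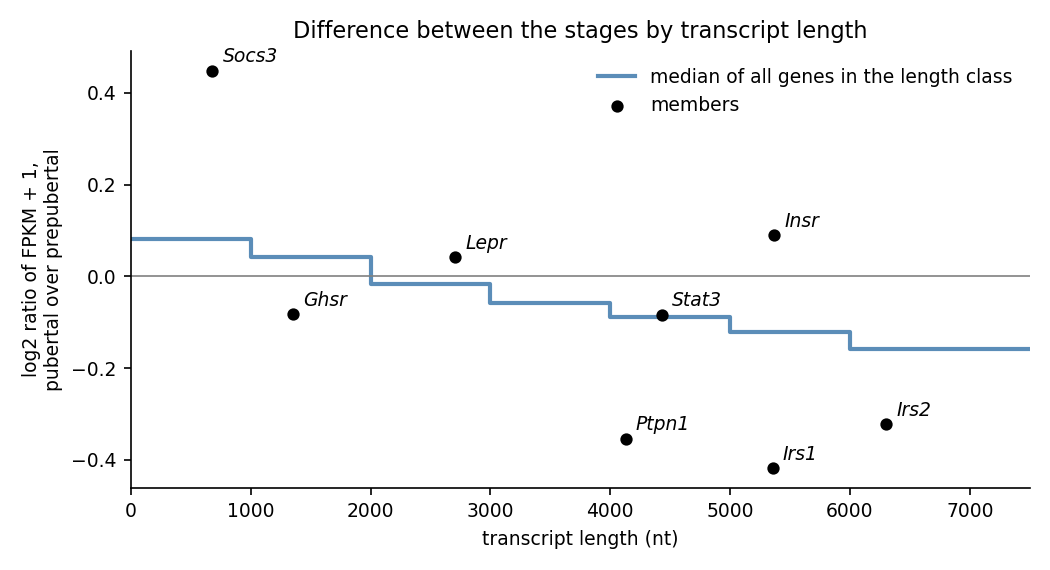
Log2 difference between the stages against transcript length (nt) for the 8 genes (points), with the median of all genes with a mean of at least 1 FPKM in each length class (line). The line goes from 0.08 to -0.16. Irs1, Irs2, Ptpn1 and the shorter Ghsr lie below it, and Insr, Socs3 and Lepr above it.

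Genes of the hormones themselves were at or near 0 in these libraries. Ins1, Ins2, Ghrl and Leap2, which encode the insulins, ghrelin and an antagonist of the ghrelin receptor, were listed at 0 in both libraries. These transcripts are short, so the values limit them little. For Ghrl, 3 fragments would have given 0.595 FPKM before puberty and 0.744 FPKM at puberty, for Ins1 0.769 and 0.954 FPKM and for Ins2 0.765 and 0.949 FPKM, levels near those of Ghsr and Socs3. The Leap2 transcript, of 254 nt, is about as long as the mean fragment, and no limit was derived for it. Lep, the leptin gene, was listed at 0 and at 0.0609 FPKM, the latter from 3 fragments. Mboat4, the enzyme that attaches the fatty acid ghrelin needs to act, had 0.275 and 0.292 FPKM, from 6 and 5 fragments. Of the 10 genes in the list of ligands and their activation, 3 had a mean of at least 1 FPKM. Igf2 and Igf1, growth factors related to insulin, had log2 differences of -0.33 and -0.41. Igf2 had 27.1 FPKM before puberty and 21.3 FPKM at puberty. Cntf, a cytokine that also acts through STAT3, went from 7.24 to 8.42 FPKM, a log2 difference of 0.19.

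Around the leptin receptor, the 12 further genes of its signalling were all above 1 FPKM on average. At puberty 8 were higher and 4 lower, against 49% of all genes higher. Their median log2 difference was 0.04, against -0.01 over all genes. Jak2, the kinase bound to the receptor, had 21.1 FPKM before puberty and 23.7 FPKM at puberty, a level near that of Stat3. Ptpn11, the phosphatase SHP2 that couples the receptor to the ERK branch, had the highest level and the largest positive difference, from 94.5 to 124 FPKM (0.38). Stat5b went from 24.3 to 26.6 FPKM and Stat5a from 2.22 to 2.29 FPKM. Both are transcription factors that leptin can also activate. Leprot, which limits the number of leptin receptors on the surface, had 32.9 and 33.1 FPKM. Sh2b1, the adaptor that strengthens JAK2 signalling, went from 11.2 to 8.31 FPKM (-0.39). Crtc1, a coactivator of CREB, was the 1 gene of this list past 1.5-fold, from 5.47 to 3.16 FPKM (-0.64). Past 1.5-fold and lower were 2.33% of all genes. The list's median was -0.01 with libraries scaled to equal totals, where the median of all genes was -0.06.

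Among the 14 other feedback inhibitors, 11 reached a mean of 1 FPKM. Of these 11, 4 were higher and 7 lower, against 51% of all genes lower. Their median was -0.16, against -0.01 over all genes, and 0 were past 1.5-fold, against 4.08% of all genes. Socs1 resembled Socs3 in level and difference, with 0.630 FPKM before puberty and 1.27 FPKM at puberty, but it rests on 5 and 8 fragments. Socs2 had 3.71 and 4.25 FPKM, and Cish, a target of STAT5, 0.814 and 0.423 FPKM from 27 and 11 fragments. Among the 11 genes with a mean of at least 1 FPKM, the largest positive difference was that of Grb14, an adaptor that blocks the insulin receptor kinase, from 7.50 to 10.8 FPKM (0.48), and the largest negative one was that of Socs4, from 7.25 to 5.07 FPKM (-0.44). Grb10, a relative of Grb14, had the highest level, 41.8 and 38.4 FPKM. Ptpn2, the phosphatase most like PTP1B, had 10.04 FPKM before puberty and 10.5 FPKM at puberty.

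The genes of the insulin branch leaned the way of Irs1 and Irs2, by small amounts. Of 29 genes listed, 28 were in the table (Irs4 was not analysed here) and 27 reached a mean of 1 FPKM. Of these 27, 21 were lower and 6 higher at puberty, against 51% of all genes lower. Their median was -0.15, and 0 were past 1.5-fold, against 4.08% of all genes. The median of this list was -0.12 when each gene was set against its length class and 0.19 with Actb made equal, where the median of all genes was 0.36. Igf1r, the receptor most like INSR, had 5.36 FPKM before puberty and 4.41 FPKM at puberty (-0.23). Pik3r1, the regulatory subunit that binds to the IRS proteins, went from 45.4 to 39.1 FPKM (-0.21). Akt1, a kinase that carries the signal onward from PI3-kinase, went from 86.4 to 88.5 FPKM (0.03) and its relative Akt2 from 15.4 to 12.2 FPKM (-0.32). Foxo1, the transcription factor that AKT keeps out of the nucleus, had 2.70 and 2.43 FPKM (-0.11). The extremes were Tsc1, a brake on mTOR, from 7.32 to 5.12 FPKM (-0.44), and Shc1, an adaptor of the ERK branch, from 4.48 to 5.19 FPKM (0.18).

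Genes after the ghrelin receptor had the narrowest range of the 4 signalling lists, from -0.30 to 0.15. All 14 had a mean of at least 1 FPKM, with 4 higher and 10 lower, against 51% of all genes lower. The median was -0.06, against -0.01 over all genes, and 0 were past 1.5-fold, against 4.08% of all genes. Gnaq, the G protein subunit through which GHSR signals, had the highest level and 93.2 FPKM before puberty against 92.6 FPKM at puberty (-0.01). Gna11, its relative, had the largest negative difference, from 29.8 to 23.96 FPKM (-0.30). Prkaa1, a catalytic subunit of AMPK, had the largest positive one, from 16.1 to 17.96 FPKM (0.15). Mrap2, an accessory protein of GHSR, had 34.5 and 37.3 FPKM (0.11), and its level was far above that of Ghsr.

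The peptides of arcuate neurons that respond to these hormones were higher at puberty in 5 of 5 cases, against 49% of all genes. Their median of 0.33 was positive under every scaling tried, and 0 were past 1.5-fold, against 4.08% of all genes. The gene of lowest level among the 5 rests on only 16 fragments in each library. Agrp and Npy, which promote feeding, went from 21.4 to 27.2 FPKM and from 26.2 to 32.3 FPKM. Pomc, the precursor of the satiety peptide alpha-MSH, had the largest difference, from 45.8 to 68.3 FPKM (0.57). The transcripts taken for these 5 genes are all under 1000 nt, the length class with a median of 0.08. Peptide genes of other hypothalamic neurons in the marker list were also higher, by 0.74 for Oxt, 0.70 for Pmch, 0.50 for Gal and 0.34 for Hcrt, with Avp at -0.08, and the marker list, which shares Agrp with the peptides, has the same median of 0.33. Pomc is also made in the pituitary, of whose 5 markers with a mean of at least 1 FPKM 4 were higher and 1 lower, with a median of 0.27. The part of these in the peptide values was not tested.

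**Figure D5:**
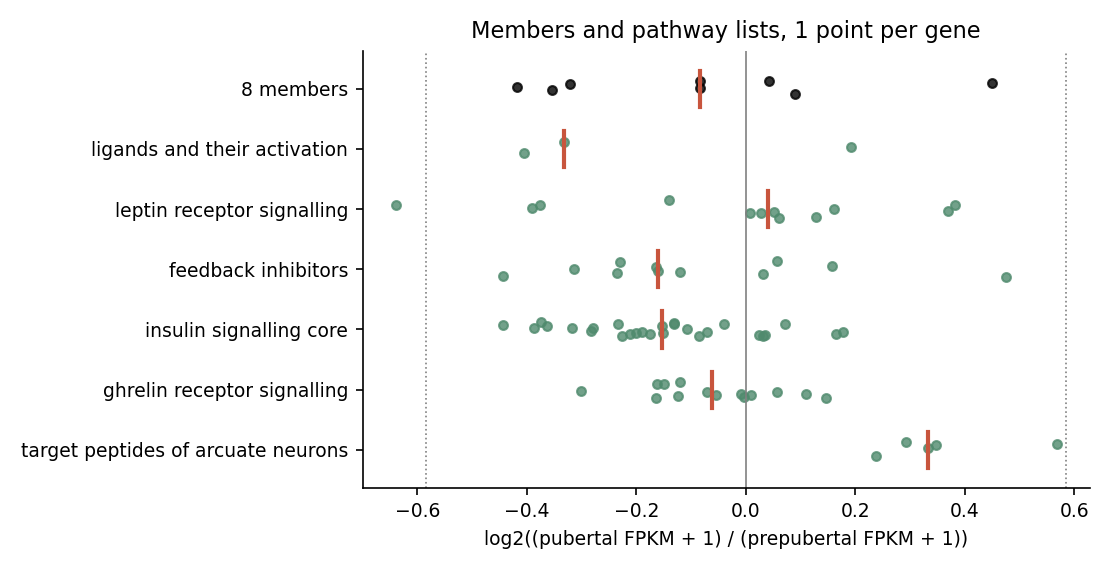
Log2 difference between the stages for each gene with a mean of at least 1 FPKM (1 point per gene) in the 6 pathway lists, and for the 8 sensing genes. Red bars are medians and dotted lines mark 1.5-fold. The insulin list lies mostly left of 0 with a median of -0.15, and the 5 arcuate peptides lie right of it.

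Genes of other cell types also differed between the libraries, and their part in the values above was not tested. The 8 neuronal markers were all lower at puberty, with a median of -0.23, and the 7 microglial markers were all higher, with a median of 0.18. The 8 markers of meninges and fibroblasts were all lower, 5 of them past 1.5-fold, and their summed level went from 73.9 to 43.5 FPKM. The 6 markers of red blood cells were all higher, 5 past 1.5-fold, with sums of 6845 and 13103 FPKM. Endothelial cells and the choroid plexus also carry leptin receptors. Of 9 endothelial and pericyte markers 3 were higher and 6 lower (median -0.11), from -0.59 for Kdr, the 1 marker past 1.5-fold, to 0.57 for Slco1a4, with sums of 208 and 219 FPKM. The 8 markers of choroid plexus summed to 41.4 and 35.8 FPKM, and 6 of them had a mean of at least 1 FPKM, 3 higher and 3 lower (median -0.01). Pituitary cells, which carry the ghrelin receptor, left 7 of 7 markers above 0 in at least 1 library, with sums of 31.8 and 44.3 FPKM, of which Cga made up 24.6 and 29.97 FPKM. The 5 with a mean of at least 1 FPKM ran from -0.09 for Lhb to 2.14 for Prl, which was listed at 0 before puberty and at 3.40 FPKM at puberty, with 2 past 1.5-fold. Of 9 immediate early genes, 7 had a mean of at least 1 FPKM, 1 higher and 6 lower (median -0.20). Tanycyte, astrocyte and oligodendrocyte markers were split in direction, with 3 of 4, 4 of 7 and 3 of 7 higher. Of the astrocyte markers, 1 was past 1.5-fold, Gja1, which was lower (-0.67).

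The promoters of the members were searched for TTCNNNGAA, the form of the element that STAT proteins bind, which reads the same on both strands. The windows are from RefSeq (build GRCr8) and run from 250 bases before to 50 after the annotated gene start. Windows were given for 7 of the 8 genes, without Irs2, and 0 of the 7 held these letters, against 8.87% of 33469 windows. This says only that these letters are not in these windows.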

How the data were processed

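Hypothalamic RNA of prepubertal and pubertal rats was depleted of ribosomal RNA and sequenced as strand-specific libraries. The authors aligned reads with TopHat, assembled transcripts with Cufflinks (2.1.1) and Scripture and estimated FPKM per transcript with Cuffdiff (2.1.1). The submitters' processing notes name the build Rnor_5.0, whereas the methods point to an annotation of Rnor_6.0, so which annotation gave the transcript models and lengths is not settled. The deposited values are FPKM, scaled for depth and length by the authors, with 1 column per stage. The fold changes, p-values and q-values of the authors' own comparison, and the lncRNA sequences, were not used.

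Transcripts were joined to gene names of the comparison table and summed per gene (ignoring case). FPKM of 13 of 26324 transcripts differed between the tables, 0 of them from members. The mRNA table was used. Depth was derived from genes with 1 transcript of 800 to 4000 nt: for 95.0% of 1307 and 95.2% of 1552 such genes with up to 6 fragments, FPKM times effective length came out whole within 0.05, at mean fragment lengths of 258 and 252 nt. At other depths the median share was 5.44% and 4.37%. Estimates for multi-transcript genes need not be whole and were rounded. Counting intervals (95%) are exact Poisson intervals for levels and exact conditional binomial intervals for ratios. PCR copies cannot be told apart, so they cover counting error only. The depth estimate, the sums per gene, the log2 ratios and the intervals for ratios were tested on simulated data.

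The pseudocount was 1, and genes with a mean of at least 1 FPKM (13612) gave the background. Alternatives were a pseudocount of 0.1, a single transcript per gene (that of highest FPKM), scaling to equal medians, totals or Actb, the FPKM of the comparison table, a 2-fold limit and all genes above 0. Centring within length classes was chosen after seeing the data. The members and gene lists were chosen with earlier results of these data known. Named were all members, in each list the highest level and the largest difference in each direction, and a set of genes of known role. A gene that this rule names is not reported here. Ly6c1, Foxj1, Dio2 and Irs4 and the protein sequences of the members were not analysed here. Calculations ran in Python 3.11.15 (scipy 1.17.1, pandas 2.3.3, numpy 2.4.6, matplotlib 3.10.9).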

Additional observations from a re-analysis of the deposited data

How the results depend on the processing

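Scaling to equal Actb moved the most, since it shifted all genes: the median of the 8 members became 0.22, 6 of them were higher, against 90.4% of all genes, and 1, Socs3, was past 1.5-fold, against 16.98%. The list medians became 0.056 for ligands, 0.43 for leptin signalling, 0.23 for feedback inhibitors, 0.19 for the insulin branch, 0.32 for ghrelin signalling and 0.72 for arcuate peptides, beside 0.36 for all genes. Taking the transcript with the highest FPKM gave a median of -0.20 for the members, because the shorter transcript then stands for Lepr (-0.43), and -0.20 for the ligands. With a pseudocount of 0.1, 1 member, Socs3, was past 1.5-fold, against 6.74% of all genes. Scaling to equal medians (a factor of 1.03) or totals (0.960) and the FPKM of the comparison table moved no member or list median by 0.1 or more on the log2 scale, and centring within length classes moved no list median by that much. Of all genes, 0.911% were past 2-fold. No paired analysis was possible because each stage has 1 library, and for the same reason no library could be left out. Among the members, depth limits Socs3 and Ghsr most, and for Lepr and Insr the split between transcripts has no stated error.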
